A study of Homo sapiens with 6 samples.

Results

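Expression of 9 genes of the LIF, IL6 and gp130 cytokine family was examined in 6 RNA-seq libraries of MRC5 cells, a human embryonic lung fibroblast line that had been immortalised with hTERT. The genes were taken by symbol from 25368 different symbols in each of 2 deposited tables, and all 9 were found in both. They comprise the ligands LIF, IL6, IL11 and CLCF1, the receptor chains IL6ST, LIFR and OSMR, the transcription factor STAT3 and the inhibitor SOCS3. The JUN overexpression table holds MRC5 infected with adenovirus carrying an empty vector (control), FLAG-tagged JUN WT, or JUN AA, in which both serines phosphorylated by JNK were replaced by alanine, so that all 3 cultures, the control included, had received adenovirus. The JNKi table holds untreated MRC5, induced CAFs (iCAFs) obtained by 7 days in medium conditioned by MDA-MB-231 breast cancer cells, and iCAFs treated with 1 µM JNKi (JNK-IN-8, an inhibitor of JNK) for 48 h. MRC5 cells were maintained in medium with serum. The MDA-MB-231 medium was conditioned without serum, and whether serum was added back for the iCAFs is not stated. Below, "before conditioning" names the untreated MRC5 library and "after it" the iCAFs library. Likewise, "once JNKi was added" names the iCAFs+JNKi library. These are separate libraries, and the labels do not describe a single culture followed over time. The labels name DMSO as the vehicle in the treatment protocol but do not say that the iCAFs library received it. Each condition has 1 library from 1 cell line, so no difference below has a replicate check or a p-value, and differences are descriptions of these libraries.

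Cytokines of this family signal through IL6ST, which encodes the shared receptor chain gp130. LIF joins IL6ST to LIFR, oncostatin M can join it to OSMR, and IL6 and IL11 first bind private receptor chains encoded by IL6R and IL11RA. The assembled receptor activates JAK kinases, which phosphorylate STAT3, and STAT3 in turn induces SOCS3, a protein that blocks the receptor complex. In tumours, IL6 and LIF are known as secreted products of inflammatory CAFs. Phosphorylation of STAT3 is not visible in RNA, so the values below describe transcripts and not signalling.

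Among the 9 genes, 7 have a promoter window in the RefSeq table used (250 bases before to 50 after a start, 10 windows for the 7 genes), and LIF and CLCF1 have none. The windows of IL6 and IL11 are shown because these 2 ligands stood at least 2-fold higher in iCAFs than in MRC5 and their windows hold different motifs. Bases that overlap an annotated exon were left off. The IL6 stretch is chr7:22766569-22766765 of GRCh37, plus strand, ends 53 bases before the start, and has the NF-kB motif in capitals. This start is that of RefSeq, and the stretch lies inside the IL6 interval given below, which comes from GENCODE. The IL11 stretch is chr19:55881832-55882081, minus strand, ends at the start, and has the AP-1 motif TGANTCA in capitals. Both were placed on GRCh37, the assembly also called hg19, by a single exact match and are read 5′ to 3′ on the strand of the gene.
IL6: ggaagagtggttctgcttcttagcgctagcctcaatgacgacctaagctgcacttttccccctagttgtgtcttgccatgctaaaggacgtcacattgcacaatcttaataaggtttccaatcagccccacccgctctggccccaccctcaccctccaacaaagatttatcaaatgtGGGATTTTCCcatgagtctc
IL11: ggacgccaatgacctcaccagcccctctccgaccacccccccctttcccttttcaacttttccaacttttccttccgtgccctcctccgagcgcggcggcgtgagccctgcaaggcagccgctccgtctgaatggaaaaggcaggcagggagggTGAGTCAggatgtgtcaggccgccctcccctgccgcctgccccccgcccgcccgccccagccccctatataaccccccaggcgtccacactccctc

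The NF-kB motif of IL6 lies 73 to 64 bases before the start, and the AP-1 motif of IL11, TGAGTCA, lies 96 to 90 bases before it. On either strand, TGANTCA was found in 7.71% of all 35116 windows, the NF-kB motif in 11.3%, the CRE motif TGACGTCA in 1.85% and the STAT motif TTCNNNGAA in 7.66%. TGANTCA and the CRE motif do not match the same bases. Of the other windows, that of IL6ST holds an NF-kB motif, OSMR holds a TGANTCA motif 3 to 9 bases after its start, and 2 of 3 windows of LIFR hold a STAT motif. No motif of these 4 was found in the windows of STAT3 and SOCS3. A match describes letters within these windows and is not evidence of binding. The windows are short, and more distant sequence was not searched.

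Values are FPKM, that is fragments per kilobase of exon per 1000000 mapped fragments, as the authors deposited them, and differences are on the log2(FPKM + 1) scale, which understates changes of genes with low values. A gene passed the filter on low values with a mean of at least 1 FPKM over the 3 libraries of its table, which left 10311 genes for JUN overexpression and 11780 for JNKi, and all 9 family members passed in both. IL6 passed in the JUN overexpression table only through its JUN WT value. Values were compared within a table only, as the tables were normalised separately. FPKM summed to between 494603 and 613184 per library in the first table and between 359944 and 399532 in the second, and the number of reads is unknown. JUN, as a check of the labels, read 25.5 FPKM under the empty vector, against 4543 FPKM with JUN WT and 291 FPKM with JUN AA, and 57.1, 55.3 and 21.1 FPKM in MRC5, iCAFs and iCAFs+JNKi. All 10 fibroblast markers checked, such as COL1A1 and VIM, were above 1 FPKM in every library. The 6 epithelial markers summed to at most 2.02 FPKM, and CDH1, ESRP1 and GRHL2 were listed at 0 throughout. Of 6 immune markers, CD68 was at 31.1 to 85.7 FPKM and at least 2-fold higher in JUN WT than in the control (32.6 FPKM), LYZ was at 2.03 FPKM in JUN AA and at or near 0 elsewhere, PTPRC was at or near 0 and CD3E was listed at 0. Of 5 endothelial markers, CDH5 was listed at 0, and TEK read 2.52 FPKM before conditioning, against 3.77 FPKM after it and 10.4 FPKM under JNKi. The part of these markers in the values of the family was not tested.

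**Figure D1:**
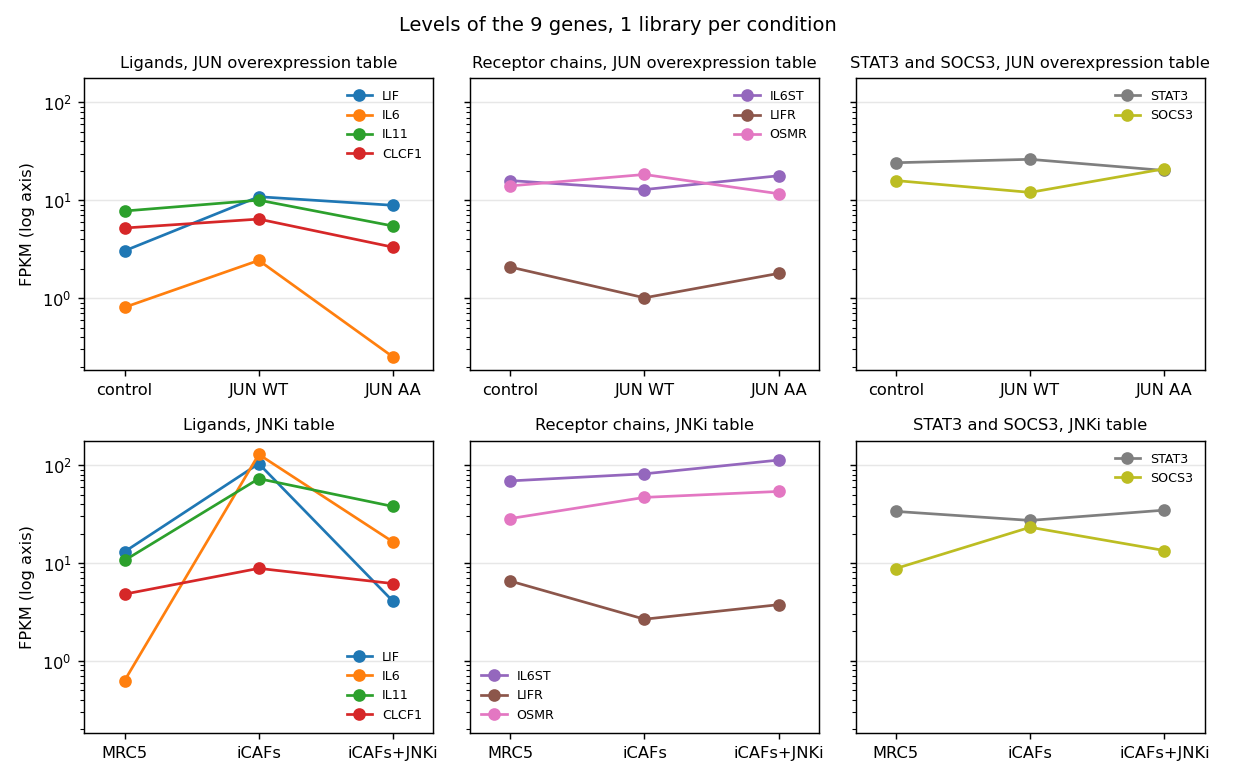
FPKM of the 9 genes on a log axis in the JUN overexpression table (top) and the JNKi table (bottom), with ligands, receptor chains, and STAT3 with SOCS3 in separate panels. Each point is 1 library and lines only join points of the same gene. LIF, IL6 and IL11 peaked in iCAFs at 104, 129 and 73 FPKM, while STAT3 stayed between 27 and 35 FPKM in that table.

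The first question was how the family differed between iCAFs and untreated MRC5. Serum may also differ between these libraries, and its part was not tested. In iCAFs against MRC5, 4 of the 9 genes (LIF, IL6, IL11 and SOCS3) lay at least 2-fold above MRC5 and 1 (LIFR) at least 2-fold below. Among all genes passing the filter, 1.94% lay as far above and 1.71% as far below. The median difference of the 9 genes was 0.76, beside -0.061 over all genes. Of the 10 fibroblast markers, 8 were lower in iCAFs than in MRC5, DCN and S100A4 by at least 2-fold (-1.46 and -1.27), with a median of -0.32, and their part in the differences of the family was not tested. With 1 bulk library for each condition, more expressing cells and more RNA per cell cannot be told apart.

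IL6, an inflammatory cytokine, is encoded on chromosome 7 of GRCh37 between 22765503 and 22771621. IL6 mRNA read 0.63 FPKM before conditioning, against 129 FPKM in iCAFs and 16.4 FPKM under JNKi. IL6 was thus the lowest of the 9 genes in MRC5 and the highest in iCAFs. The log2 difference of 6.32 between iCAFs and MRC5 was exceeded by 3 of 11780 genes. As the MRC5 value lies below 1 FPKM, the size of this difference depended on the pseudocount, and it was 7.47 with a pseudocount of 0.1. IL6 shares 9.91% of its exon bases with the antisense gene IL6-AS1 on the annotation used, and the library kit is not described as stranded, so reads of such partners cannot be told apart.

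LIF, on chromosome 22 from 30636442 to 30642748, encodes leukemia inhibitory factor. It measured 13.0 FPKM in untreated MRC5, 104 FPKM after conditioned medium (iCAFs) and 4.06 FPKM once JNKi was added. The iCAFs value was 7.95 times that in MRC5, with a log2 difference of 2.90 that 28 genes exceeded. LIF also shares short exon stretches with the antisense genes LIF-AS1 and LIF-AS2, 2.22% and 2.14% of its exon bases.

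IL11, a cytokine known for its part in tissue fibrosis, lies on chromosome 19 from 55875750 to 55881831 and shares no exon bases with another gene. It read 10.6 FPKM before conditioning, against 72.7 FPKM in iCAFs and 37.8 FPKM under JNKi. The log2 difference between iCAFs and MRC5 was 2.67, close to that of LIF. CLCF1, on chromosome 11 from 67131639 to 67141648, encodes a ligand that binds the receptor formed with CNTFR. It measured 4.80 FPKM in untreated MRC5, 8.81 FPKM after conditioned medium (iCAFs) and 6.16 FPKM once JNKi was added, and its log2 difference of 0.76 in iCAFs was below 2-fold.

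Summed over the 4 ligands, transcripts came to 29.1 FPKM in untreated MRC5, 314 FPKM after conditioned medium and 64.4 FPKM under JNKi. The makeup of this sum differed between libraries. LIF accounted for 44.8% of it before conditioning, 33.0% after it and 6.30% under JNKi. IL6 accounted for 2.16%, 41.0% and 25.5% in the same order. IL11 made up 36.5% in MRC5 and 23.2% in iCAFs, and with JNKi it was the main part at 58.7%.

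**Figure D2:**
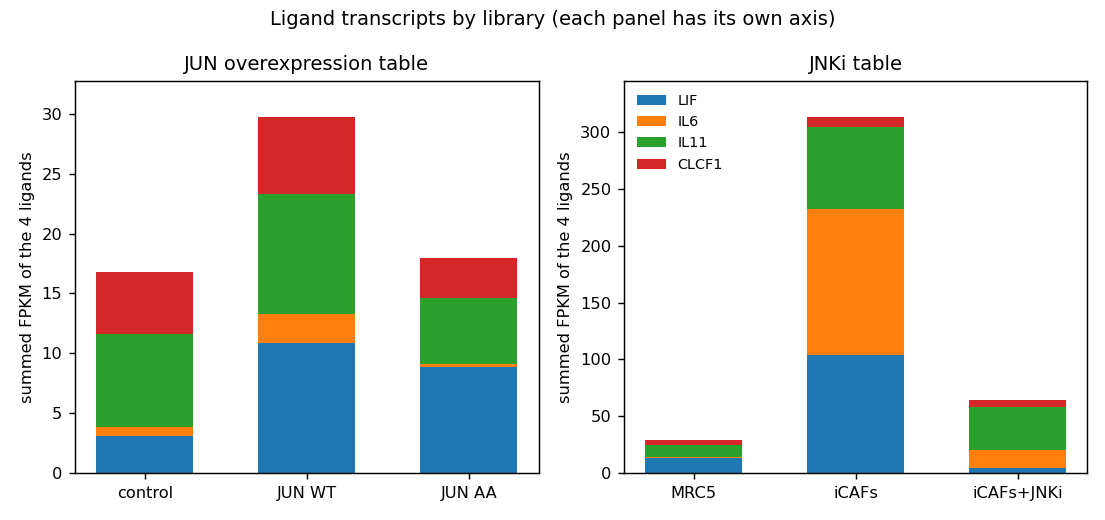
Stacked bars of the FPKM of LIF, IL6, IL11 and CLCF1 in each library, with the JUN overexpression table on the left and the JNKi table on the right, each on its own linear axis from 0. The sum reached 314 FPKM in iCAFs, where IL6, LIF and IL11 made up most of it, and 29.8 FPKM in JUN WT, where LIF and IL11 had similar shares.

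Of the receptor chains, only LIFR was past 2-fold in iCAFs. LIFR, on chromosome 5 from 38474770 to 38608456, encodes the chain that binds LIF. It read 6.54 FPKM before conditioning, against 2.66 FPKM in iCAFs and 3.75 FPKM under JNKi. Its log2 difference of -1.04 between iCAFs and MRC5 was just past 2-fold, and it was no longer past it once differences were centred on the median gene. As LIF was higher and LIFR lower in the same library, the ratio of LIF to LIFR transcripts was 1.99 before conditioning, 38.9 after it and 1.08 under JNKi. OSMR, the receptor chain for oncostatin M, on chromosome 5 from 38845960 to 38945698, measured 28.5 FPKM in untreated MRC5, 46.8 FPKM after conditioned medium (iCAFs) and 53.8 FPKM once JNKi was added. OSMR thus lay above MRC5 in both treated libraries, by 0.70 and 0.90 on the log2 scale. IL6ST, on chromosome 5 from 55230923 to 55290850, read 69.0 FPKM before conditioning, against 81.5 FPKM in iCAFs and 113 FPKM under JNKi. It was the highest of the 9 genes in MRC5 and in iCAFs+JNKi. OSMR shares 3.19% of its exon bases with RICTOR on the opposite strand, LIFR 5.17% with LIFR-AS1, and IL6ST 6.61% with an unnamed antisense gene.

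STAT3 and SOCS3 differed in their course. STAT3, on chromosome 17 from 40465342 to 40540558, measured 33.7 FPKM in untreated MRC5, 27.2 FPKM after conditioned medium (iCAFs) and 34.7 FPKM once JNKi was added, a range of less than 2-fold. SOCS3, on chromosome 17 from 76352859 to 76356158, read 8.78 FPKM before conditioning, against 23.2 FPKM in iCAFs and 13.4 FPKM under JNKi. Its log2 difference between iCAFs and MRC5 was 1.31, and 150 genes had a larger one. Per unit of exon length, SOCS3 transcripts were at 0.26 times STAT3 before conditioning, 0.85 times after it and 0.39 times under JNKi. Neither gene shares exon bases with another on the annotation used.

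The second question was which of these levels differed between iCAFs with and without JNKi. In iCAFs+JNKi against iCAFs, LIF and IL6 were at least 2-fold lower and none of the 9 genes was at least 2-fold higher. Over all genes, 1.97% were at least 2-fold lower and 2.25% at least 2-fold higher. The median difference was -0.46 for the 9 genes and -0.099 over all genes, and this shift of all genes is part of each difference given for this pair. All 4 ligands and SOCS3 were lower with JNKi, whereas the 3 receptor chains and STAT3 were higher.

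LIF differed most of the 9, by -4.37 on the log2 scale. Its level in iCAFs was 25.5 times that with JNKi, and 1 gene of 11780 had a more negative difference. IL6 differed by -2.90, with 9 genes more negative, and its level in iCAFs was 7.84 times that with JNKi. IL11 differed by -0.93, SOCS3 by -0.75 and CLCF1 by -0.46, all short of 2-fold. IL6ST was higher by 0.46, LIFR by 0.37, STAT3 by 0.34 and OSMR by 0.20. Among the fibroblast markers, 4 of 10 were also at least 2-fold higher with JNKi (COL1A1, COL3A1, PDGFRB and DCN), with a median difference of 0.88. Their part in the differences of the family was not tested.

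Against untreated MRC5, the ligands did not end at the same place. In iCAFs+JNKi against MRC5, LIF was at least 2-fold lower, and IL6 and IL11 were at least 2-fold higher, beside 3.53% lower and 3.28% higher among all genes. LIF with JNKi was at 0.31 times its level in MRC5, with a log2 difference of -1.47. IL6 with JNKi was still 26.2 times its MRC5 level, and IL11 3.56 times. On the log2 scale, the difference with JNKi ran against that between iCAFs and MRC5 for the 4 ligands, SOCS3, STAT3 and LIFR. It amounted to 151% of it for LIF, 60.1% for CLCF1, 57.3% for SOCS3, 45.9% for IL6 and 34.7% for IL11. For STAT3 and LIFR it was 114% and 36.0%. For OSMR and IL6ST it ran in the same direction, which gives -28.3% and -195%. The iCAFs differences of STAT3 and IL6ST were small, at -0.30 and 0.24. The difference with JNKi and that between iCAFs and MRC5 share the iCAFs library, so an unusual value in that library would enter both. In this pair the median gene was at -0.16. OSMR, at 0.90, was past 2-fold once differences were centred on the median gene or FPKM were rescaled to the same sum.

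**Figure D3:**
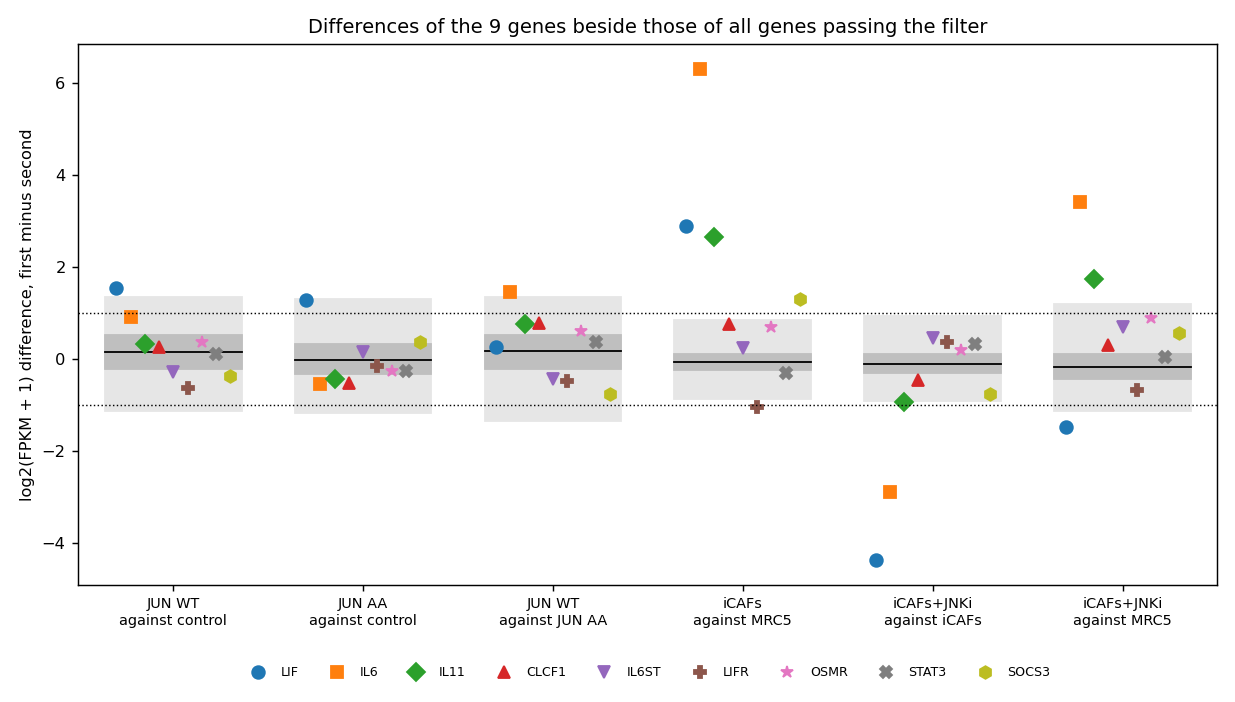
Differences of log2(FPKM + 1), first library minus second, for the 9 genes (coloured symbols) in 6 comparisons. The dark and pale grey boxes hold the middle 50% and 95% of all genes passing the filter, the black line is their median, and dotted lines mark 2-fold. IL6 at 6.32 in iCAFs against MRC5 and LIF at -4.37 in iCAFs+JNKi against iCAFs lie farthest from the boxes, and STAT3 lies between -0.30 and 0.36 in all 6 comparisons.

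The third question was how the family differed with JUN overexpression alone, and between JUN WT and JUN AA. JUN itself read 4543 FPKM with JUN WT and 291 FPKM with JUN AA. The loss of the JNK sites and the lower JUN level in JUN AA therefore cannot be told apart. In JUN WT against control, LIF was the only one of the 9 genes past 2-fold, in the upward direction. The background was 6.92% of genes higher and 3.39% lower, so 1 of 9 is no result about the family as a whole. In JUN AA against control, LIF again was the only one past 2-fold and was higher. Among all genes, 5.29% were as far higher and 3.77% as far lower, so this too is no result about the family as a whole. These comparisons share the control library. Of the 10 fibroblast markers, 2 were at least 2-fold lower in JUN WT and 4 in JUN AA than in the control, and their part in the values of the family was not tested.

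LIF measured 3.04 FPKM with empty vector, 10.9 FPKM with JUN WT and 8.89 FPKM with JUN AA. Its log2 difference against control was 1.55 in JUN WT, exceeded by 151 genes, and 1.29 in JUN AA, exceeded by 270 genes. The 2 JUN libraries were 0.26 apart for LIF on the log2 scale, and 0.56 apart after rescaling of each library to an equal FPKM sum. IL6 read 0.81 FPKM under the empty vector, against 2.43 FPKM with JUN WT and 0.25 FPKM with JUN AA. It was thus higher than the control in JUN WT and lower in JUN AA, with log2 differences of 0.93 and -0.53, although the control and JUN AA values lie below 1 FPKM. With a pseudocount of 0.1 these became 1.48 and -1.37, both past 2-fold.

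In JUN WT against JUN AA, IL6 was the only member at least 2-fold higher and none was at least 2-fold lower. Among all genes, 6.65% were as far higher and 5.61% as far lower, so this is no result about the family as a whole. IL6 passed the filter here only through its JUN WT value, and its JUN AA value was 0.25 FPKM. The difference of IL6 was 1.46 on the log2 scale, and it was 2.85 with a pseudocount of 0.1 and 2.06 after rescaling of FPKM. IL11 measured 7.77 FPKM with empty vector, 10.03 FPKM with JUN WT and 5.46 FPKM with JUN AA. CLCF1 read 5.21 FPKM under the empty vector, against 6.43 FPKM with JUN WT and 3.32 FPKM with JUN AA. Both had values above the control in JUN WT and below it in JUN AA, and their differences between the 2 JUN libraries were 0.77 and 0.78. After scaling of all libraries to an equal FPKM sum these became 1.09 and 1.12, past 2-fold, as JUN AA has the largest FPKM sum. The median gene was at 0.15 in JUN WT against control, -0.015 in JUN AA against control and 0.18 in JUN WT against JUN AA. Summed over the 4 ligands, levels came to 16.8 FPKM with empty vector, 29.8 FPKM with JUN WT and 17.9 FPKM with JUN AA, and LIF made up 18.1%, 36.5% and 49.6% of these sums.

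On the log2(FPKM + 1) scale, neither LIFR, OSMR nor IL6ST was past 2-fold with either JUN construct. LIFR measured 2.08 FPKM with empty vector, 1.01 FPKM with JUN WT and 1.79 FPKM with JUN AA. As plain FPKM, the control was at 2.06 times JUN WT. The LIFR difference in JUN WT was -0.62, and it was -0.98 with a pseudocount of 0.1. OSMR read 14.0 FPKM under the empty vector, against 18.4 FPKM with JUN WT and 11.7 FPKM with JUN AA. IL6ST measured 15.9 FPKM with empty vector, 12.9 FPKM with JUN WT and 17.8 FPKM with JUN AA, and its difference of 0.15 in JUN AA turned to -0.14 with rescaled FPKM. The LIFR value was lowest and the OSMR value highest in JUN WT. STAT3 read 24.2 FPKM under the empty vector, against 26.2 FPKM with JUN WT and 20.2 FPKM with JUN AA, and its difference of 0.11 in JUN WT turned to -0.038 when centred on the median gene. SOCS3 measured 15.9 FPKM with empty vector, 12.0 FPKM with JUN WT and 21.0 FPKM with JUN AA. SOCS3 was thus below the control in JUN WT, by -0.37 on the log2 scale, and above it in JUN AA, by 0.38. LIF was above the control in both.

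Other genes of the pathway were described from lists of ligands, receptor chains, kinases with adaptors and STATs, inhibitors, and genes known to be induced through STAT3, and list counts include genes that did not pass the filter. Among the 5 other ligands, OSM, which encodes oncostatin M, was listed at 0 in all 6 libraries. None of the 5 was past 2-fold in iCAFs against MRC5 or in JUN WT against control, beside 3.65% and 10.3% of all genes passing the filter. Only CTF1 and EBI3 passed that filter, so this is no result about the list. Among the 5 other receptor chains is IL11RA, the private chain for IL11. It read 13.5 FPKM under the empty vector, against 5.61 FPKM with JUN WT and 9.11 FPKM with JUN AA. Its difference of -1.13 in JUN WT was the only one of the 5 past 2-fold in that comparison. Over all genes, 3.39% were at least 2-fold lower there. IL6R read 3.42 FPKM before conditioning, against 2.11 FPKM in iCAFs and 2.32 FPKM under JNKi, with no value past 2-fold.

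Of the 9 kinases, adaptors and STATs, none was past 2-fold in iCAFs against MRC5 or in iCAFs+JNKi against iCAFs. Over all genes passing the filter, 3.65% and 4.22% were past 2-fold in these pairs, so none of 9 is no result about the list. Among the 9 other inhibitors, none was past 2-fold in JUN WT against control, in iCAFs against MRC5 or in iCAFs+JNKi against iCAFs. The shares over all genes were 10.3%, 3.65% and 4.22% in the same order, so this too is no result about the list. In JUN AA against control, SOCS1 was higher by 1.08 and CISH differed by -1.09 on the log2 scale, 2 genes named after their values were seen. In iCAFs against MRC5, the median over the 20 genes induced through STAT3 was 0.61, and those of the 4 other lists lay between -0.40 and 0.084.

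Of those 20 genes, 5 were at least 2-fold higher in iCAFs than in MRC5 and none was lower by as much, beside 1.94% higher and 1.71% lower among all genes passing the filter. SAA1 and SAA2, acute-phase proteins whose similar sequences make their separate values uncertain, were listed at 0 in MRC5 and at 55.4 and 37.0 FPKM in iCAFs. CEBPD, a transcription factor of the acute-phase response, measured 11.8 FPKM in untreated MRC5, 43.8 FPKM after conditioned medium (iCAFs) and 48.7 FPKM once JNKi was added. HIF1A, the hypoxia-inducible factor, was at 90.4, 253 and 206 FPKM in these libraries. IL4R, a receptor chain for interleukin 4, was at 15.2, 37.8 and 62.1 FPKM. With JNKi, SAA1 and SAA2 were at 50.9 and 41.5 FPKM, so none of these 5 genes was at least 2-fold below its iCAFs level, unlike LIF and IL6. LBP was the only gene of the list past 2-fold with JNKi, beside 2.25% of all genes higher and 1.97% lower. It was listed at 0 in iCAFs and at 1.15 FPKM with JNKi, and it did not pass the filter on low values.

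With JUN WT the same list had 1 gene at least 2-fold higher and 4 lower, and a median of -0.079, beside 6.92% higher, 3.39% lower and a median of 0.15 among all genes passing the filter. Of the 4, SERPINA3 did not pass that filter. CCND1, a cyclin of the G1 phase, read 85.5 FPKM under the empty vector, against 177 FPKM with JUN WT and 81.6 FPKM with JUN AA. CEBPD was at 84.0, 21.7 and 68.7 FPKM, CEBPB at 149, 66.2 and 98.9 FPKM, and IL4R at 20.4, 8.16 and 5.62 FPKM. SERPINA3, an acute-phase protease inhibitor, measured 1.57 FPKM with empty vector and 0.057 FPKM with JUN WT, and its JUN AA entry was 0. CEBPD and IL4R were thus higher in iCAFs than in MRC5 and below the control in JUN WT.

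**Figure D4:**
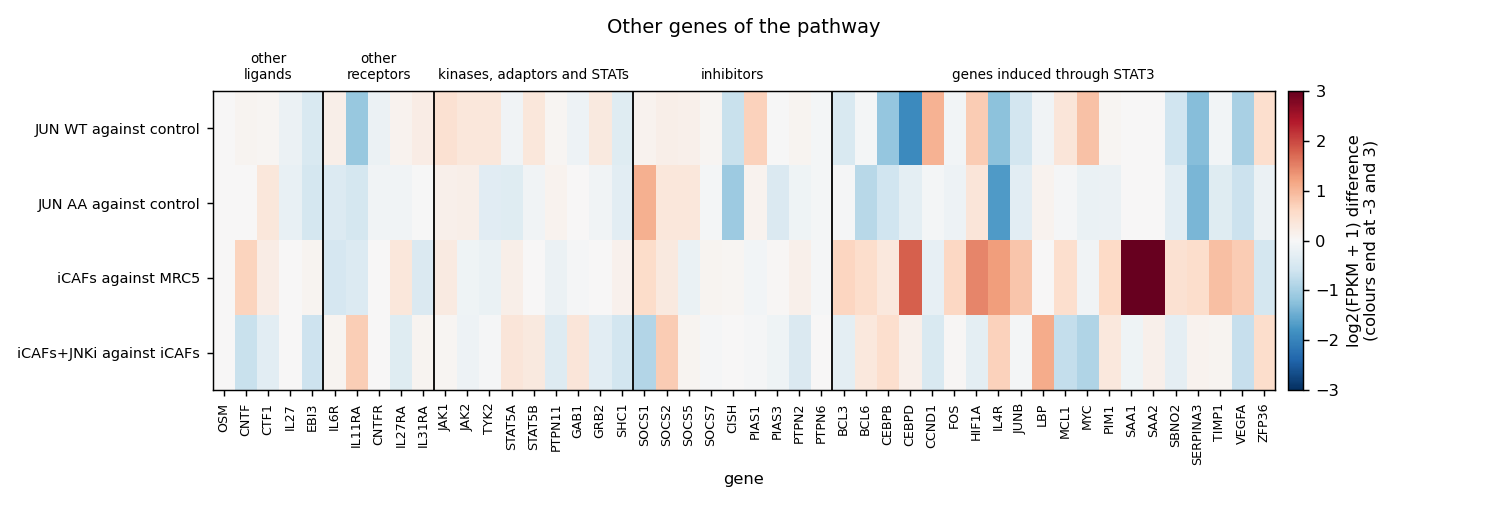
Differences of log2(FPKM + 1) for the 48 other pathway genes (columns, grouped by list) in 4 comparisons (rows), red for higher and blue for lower in the first library, with colours ending at -3 and 3. SAA1 and SAA2 in iCAFs against MRC5 exceed the scale, and most kinases, adaptors and inhibitors are pale in all rows.

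The genes with the pattern closest to LIF or IL6 were found by the Euclidean distance over the 6 libraries, after the mean of each table was subtracted on the log2 scale, among 10020 genes passing the filter in both tables. The distance reflects the size of differences as well as their direction, and no shared control is implied. Closest to LIF were CCL3, HBEGF, BCL2A1, G0S2 and CLDN1, at distances of 1.55 to 1.80. In the JNKi table, CCL3 and BCL2A1 passed the filter only through their iCAFs values. In the JUN overexpression table, G0S2 passed only through JUN WT and BCL2A1 only through JUN AA. HBEGF, a growth factor of the EGF family, was at 5.95, 23.8 and 3.36 FPKM in MRC5, iCAFs and iCAFs+JNKi, so that like LIF it ended below MRC5. It was at 1.51, 5.64 and 1.36 FPKM in control, JUN WT and JUN AA, and so, unlike LIF, near the control value in JUN AA. CCL3, a chemokine with near-identical gene copies whose reads may be shared, was at 0.26, 7.14 and 0.56 FPKM in the JNKi table and at 0.12, 2.51 and 1.69 FPKM in the JUN overexpression table. Closest to IL6 were CXCL3, CCL2, TFPI2, ICAM1 and ZC3H12A, at distances of 1.83 to 2.44. These 5 did not all share the course of IL6. TFPI2 was at 21.9, 266 and 214 FPKM in the JNKi table, and so, unlike IL6, less than 2-fold lower with JNKi. ZC3H12A was at 2.53, 2.11 and 1.22 FPKM in the JUN overexpression table, and so, unlike IL6, below the control in JUN WT. CXCL3, like IL6, passed the filter in the JUN overexpression table only through its JUN WT value. CCL2, a chemokine that attracts monocytes, was at 14.8, 159 and 38.1 FPKM in the JNKi table and at 3.08, 5.83 and 2.19 FPKM in the JUN overexpression table.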

How the data were processed

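The 6 libraries, 1 per condition, were grouped by their labels. The authors mapped reads to hg19 with hisat2 2.1.0 and deposited FPKM per gene from StringTie 2.1.1. The annotation and strand setting are not given in the sources used here. FPKM are scaled by exon length and by mapped fragments, so they hold no read counts and no count model was used. Among genes under 0.5 FPKM, the commonest ratio between libraries was shared by 1.62% to 2.13% of genes in the JNKi table (0.934 to 0.991) and by at most 0.288% in the JUN overexpression table, so reads could not be recovered and the precision of single values is unknown.

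Python 3.11.15, numpy 2.4.6 and pandas 2.3.3 were used to take differences of log2(FPKM + 1) for 6 comparisons, each within its own table, and 2-fold means a log2 difference of at least 1. Of 25370 rows, 2 that repeat a symbol were dropped for the row with the higher mean. Background shares were taken over genes averaging 1 FPKM or more in the table. The arithmetic was checked on simulated data without noise, in which genes of higher values were changed by a set factor. That check does not cover genes near 1 FPKM. The members and gene lists were chosen with earlier results of these data known. The text names all 9 members, the pathway genes past 2-fold in JUN WT against control, iCAFs against MRC5 or iCAFs+JNKi against iCAFs, and the 5 genes nearest in pattern to LIF and to IL6, with others marked. Of the lists, 3 genes are not reported here and were left out of every list count and median, so a list count covers the remaining genes only. Positions and shared exon bases come from GENCODE on GRCh37 and promoter windows from RefSeq (GRCh38.p14), placed on GRCh37 by exact match. Alternatives were scaling of each library to an FPKM sum of 1000000, a pseudocount of 0.1, centring on the median difference, adding up rows of a repeated symbol, a filter of 5 FPKM and no filter. Figures were drawn with matplotlib 3.10.9.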

Additional observations from a re-analysis of the deposited data

How the results depend on the processing

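No paired analysis was possible because each condition has 1 library, and no library could be left out. A member difference was taken to have moved at over 0.25 on the log2 scale, and a count or share at over 1.5 times. Of 216 member differences under 4 alternatives, 190 stayed within 0.25 and 26 moved, 18 of them with rescaled FPKM and 8 with a pseudocount of 0.1. None past 2-fold changed sign, and 2 smaller ones did (STAT3 and IL6ST, given above). The count of members past 2-fold in JUN WT against control was 1, and it was 2 (LIF and IL6) with a pseudocount of 0.1 and 2 with rescaled FPKM. In JUN AA against control it was 2 in place of 1 with a pseudocount of 0.1, and in JUN WT against JUN AA it was 3 in place of 1 with rescaled FPKM (IL6, IL11 and CLCF1). The counts in the 3 comparisons of the JNKi table stayed within 1.5 times under all 4 alternatives, from 4 to 5 in iCAFs against MRC5, at 2 for JNKi against iCAFs and from 3 to 4 for JNKi against MRC5.

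The share of all genes past 2-fold in either direction depended on the settings more. With a pseudocount of 0.1 it was 17.0% in JUN WT against control (10.3% as reported), 13.9% in JUN AA against control (9.06%), 5.72% in iCAFs against MRC5 (3.65%), 6.53% for JNKi against iCAFs (4.22%) and 10.3% for JNKi against MRC5 (6.81%). With rescaled FPKM it was 20.7% in JUN WT against JUN AA (12.3%). Without the filter, which adds genes of low values, it was 4.45%, 3.89%, 5.31%, 1.87%, 2.20% and 3.50% for the 3 comparisons of the JUN overexpression table and then the 3 of the JNKi table, in the order of the report's differences plot. The unknown depth limits IL6 in the control, JUN AA and MRC5 most, all below 1 FPKM.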
